A study of Mus musculus with 8 samples.

Results

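The mouse receptors that bind the constant (Fc) part of antibodies were examined in CT26 tumors after treatment with an EP4 antagonist, an injected anti-PD-1 antibody or both. The members were the 7 genes Fcgr1, Fcgr2b, Fcgr3, Fcgr4, Fcer1g, Fcgrt and Fcer2a, found by the gene names of the array design. They had 10 of the 56605 mouse probes on the array. Of these, 8 probes of 6 genes exceeded background clearly on 2 of 2 arrays in some group and entered the tests, which covered 21616 genes in all, and the 2 probes of Fcer2a did not. CT26 cells derive from a colon carcinoma of the BALB/c mouse strain. In every group 500000 CT26 cells had been implanted under the skin of the flank, treatment began at a tumor volume between 100 and 200 mm3 and lasted 2 weeks, and the methods list female mice of 6 to 10 weeks of age. The vehicle group received neither agent. The TP-16 group received TP-16, called BY001 in the labels, at 75 mg/kg by mouth each day. The anti-PD-1 group received the antibody at 50 µg into the peritoneum 2 times a week, and the combination group received both agents on these schedules. Each group had 2 samples, described as independent biological replicates, and neither the labels nor the methods say whether a sample was 1 tumor or a pool. The methods name a rat IgG2a isotype control antibody, given at the dose and schedule of anti-PD-1, but neither they nor the labels say which of these 4 groups received it. An injected IgG may therefore have been present in all groups.

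Fc receptors for IgG couple antibody-coated targets to the cells that carry them, chiefly macrophages, monocytes, neutrophils, NK cells and B cells. FcγRI (Fcgr1), FcγRIII (Fcgr3) and FcγRIV (Fcgr4) are the activating receptors of the mouse, and they signal through the common γ chain that Fcer1g encodes, whose phosphorylated tyrosine motif recruits the kinase Syk. FcγRIIB (Fcgr2b) is the inhibitory receptor, which carries an inhibitory motif and recruits the phosphatase SHIP-1 (Inpp5d). The neonatal receptor FcRn (Fcgrt), which pairs with β2-microglobulin, takes up IgG and returns it to the cell surface or the blood, so that antibody is spared from degradation. CD23 (Fcer2a) is the low-affinity IgE receptor, mainly of B cells. These receptors are of interest in a tumor treated with antibody because an injected IgG can be bound by them.

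The probes of the receptors on which the results turn are shown first, since what was measured is the RNA that hybridised to these letters. They are printed in lower case from 5′ to 3′, as the scanner files hold them, with positions in the mm9 build of the array annotation, all on the minus strand. The Fcgr1 probe lies at chr3:96088462-96088521, the dimmer of the 2 Fcgr3 probes at chr1:172984129-172984188, and the dimmer of the 2 Fcgr2b probes at chr1:172895833-172895892.
Fcgr1: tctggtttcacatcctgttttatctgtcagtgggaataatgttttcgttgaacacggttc
Fcgr3: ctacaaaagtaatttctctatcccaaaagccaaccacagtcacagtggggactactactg
Fcgr2b: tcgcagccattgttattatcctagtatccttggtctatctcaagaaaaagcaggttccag
Set against each other without gaps, the probes shared no more than 29 of 60 bases between any 2 of the 7 genes, and no more than 22 between Fcgr2b and Fcgr3. The extracellular parts of FcγRIIB and FcγRIII are nearly identical in the mouse, and the Fcgr3 probe printed above lies in that part. Whether it also bound Fcgr2b RNA was not tested.

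The regions just before the start sites were searched for 3 motifs of factors that are known to act on Fc receptor genes. The GAS motif, TTCNNNGAA, is an element of genes that respond to interferon gamma. The ISRE core, a pair of GAAA with NN between them, is bound by interferon regulatory factors, and the PU.1 box, GAGGAA, by PU.1, a factor of the myeloid and B-cell lineages. The 250 bases before each start site were searched on both strands. Among 32851 such promoters in RefSeq (GRCm38.p6), 7.02% held the GAS motif, 2.98% the ISRE core and 23.25% the PU.1 box. Of the 7 genes, Fcgr1 held a GAS motif and a PU.1 box, Fcgr4 an ISRE core and a PU.1 box, and Fcgr3 a PU.1 box, with no overlap between motifs. The letters of these motifs were not found in the windows of Fcgr2b, Fcer1g, Fcgrt and Fcer2a. The last 120 bases before the start are shown for the 3 activating receptors, and for the inhibitory receptor beside them, with the motifs in capitals. Each runs 5′ to 3′ on the strand of its gene, the plus strand for Fcgr4 and the minus strand for the others. The windows lie at chr3:96293970-96294089 for Fcgr1, chr1:171018806-171018925 for Fcgr4, chr1:171059404-171059523 for Fcgr3 and chr1:170976072-170976191 for Fcgr2b.
Fcgr1: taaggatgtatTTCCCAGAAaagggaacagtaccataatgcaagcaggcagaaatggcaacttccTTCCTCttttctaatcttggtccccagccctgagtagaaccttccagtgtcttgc
Fcgr4: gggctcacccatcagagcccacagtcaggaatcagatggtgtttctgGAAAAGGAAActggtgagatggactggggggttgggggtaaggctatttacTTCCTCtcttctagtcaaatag
Fcgr3: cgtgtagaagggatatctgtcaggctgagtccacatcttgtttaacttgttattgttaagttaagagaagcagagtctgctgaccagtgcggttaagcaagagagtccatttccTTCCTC
Fcgr2b: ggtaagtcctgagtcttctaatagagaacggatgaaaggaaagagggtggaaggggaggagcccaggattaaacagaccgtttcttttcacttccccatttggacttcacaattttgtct
The GAS motif of Fcgr1 spans bases 109 to 101 before the start and its PU.1 box bases 55 to 50. In Fcgr4 the ISRE core spans bases 73 to 64 and the PU.1 box bases 22 to 17, and in Fcgr3 the PU.1 box spans bases 6 to 1. These are matches of letters, and binding was not measured.

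All 8 arrays lay on 1 slide. The 75th percentile of intensity, which sets the scale, ran from 575 to 632 on the vehicle and anti-PD-1 arrays and from 814 to 1124 on the TP-16 and combination arrays, with the 2 combination arrays highest. Its part in the results was tested only through the other scalings given below. On the arrays 51.4% to 59.7% of the probes were well above background. The antibody groups filled one row of the slide and the TP-16 groups one side of it, so position on the slide cannot be told apart from either treatment. The 2 vehicle arrays differed most from each other, with an SD of 0.68 (log2) over the replicate differences of all tested probes, against 0.42 to 0.53 in the other groups. Vehicle replicate 1 was far below vehicle replicate 2 in several of the receptors. Epcam, an epithelial marker, was well above background on 1 array, while Krt18 was above background on all 8. Macrophage markers were well above background on all 8 arrays in 14 of 14 cases.

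FcγRI and FcγRIV, activating receptors of monocytes and macrophages (FcγRIV also of neutrophils), were higher in the combination group than in the vehicle group, by 2.61-fold and 5.11-fold. Levels are log2 intensities from which the 75th percentile of that array was subtracted. Fcgr1 stood at 1.29 and 2.28 under vehicle, 2.61 and 2.46 under TP-16, 2.71 and 2.29 under anti-PD-1, and 2.79 and 3.53 under the combination. Every treated array was above both vehicle arrays, though the lower anti-PD-1 array was above the higher vehicle array by a small margin. The rise of Fcgr1 in the combination group was 1.38 on the log2 scale (SE 0.40, 95% confidence interval 0.41 to 2.36), with an adjusted p of 0.0459 in limma, the lowest among the 6 genes on their brighter probes. It was 0.89 without vehicle replicate 1 (adjusted p = 0.123) and 1.01 without combination replicate 2 (adjusted p = 0.219), and leaving out any 1 array other than vehicle replicate 2 took it past 0.05. Fcgr4 stood at 1.02 and 3.61 under vehicle, 3.79 and 3.25 under TP-16, 4.08 and 3.83 under anti-PD-1, and 4.44 and 4.89 under the combination. Vehicle replicate 1 was lower than the other 7 arrays by more than those 7 differed among themselves. The combination difference of Fcgr4, 2.35 (SE 0.79, interval 0.40 to 4.31), did not pass, with an adjusted p of 0.0699 in limma. It was 1.05 without vehicle replicate 1, and 3.65 without vehicle replicate 2, where it passed. In RNA of whole tumors, fewer cells of a type and less RNA per cell cannot be told apart.

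FcγRIII, the activating receptor that NK cells, macrophages, neutrophils and mast cells share, was measured by 2 probes. The brighter probe stood at 4.22 and 4.62 under vehicle, 4.36 and 4.51 under TP-16, 4.65 and 4.40 under anti-PD-1, and 4.80 and 5.21 under the combination. The dimmer probe, printed above, stood at 2.24 and 2.20, 2.32 and 2.34, 2.51 and 2.19, and 2.75 and 3.02 in the same order of arrays. On both probes the 2 combination arrays were above the other 6, and the single agents overlapped vehicle, apart from TP-16 on the dimmer probe. The combination difference was 0.58 (SE 0.21) on the brighter probe, which did not pass (adjusted p = 0.0795, limma), and 0.66 (SE 0.15) on the dimmer probe, which rose with an adjusted p of 0.0271. The dimmer probe did not pass without vehicle replicate 1 (0.69, adjusted p = 0.0605), vehicle replicate 2 (0.64, adjusted p = 0.0799) or combination replicate 2 (0.53, adjusted p = 0.142) in limma. The 2 probes gave nearly the same size, and the replicates lay closer together on the dimmer one in the vehicle group, at an SD of 0.035 against 0.28.

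The common γ chain Fcer1g, without which the activating receptors are not held at the cell surface, stood at 4.60 and 5.48 under vehicle and 5.30 and 5.15 under TP-16. It stood at 5.54 and 5.39 under anti-PD-1 and at 5.69 and 6.19 under the combination. Both combination arrays were the highest of the 8, and vehicle replicate 1 was the lowest. The difference between combination and vehicle was 0.89 (SE 0.32, interval 0.12 to 1.67), an adjusted p of 0.0782 in limma. It was 0.45 without vehicle replicate 1, and 1.33 without vehicle replicate 2, where it passed with an adjusted p of 0.0305 in limma.

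**Figure D1:**
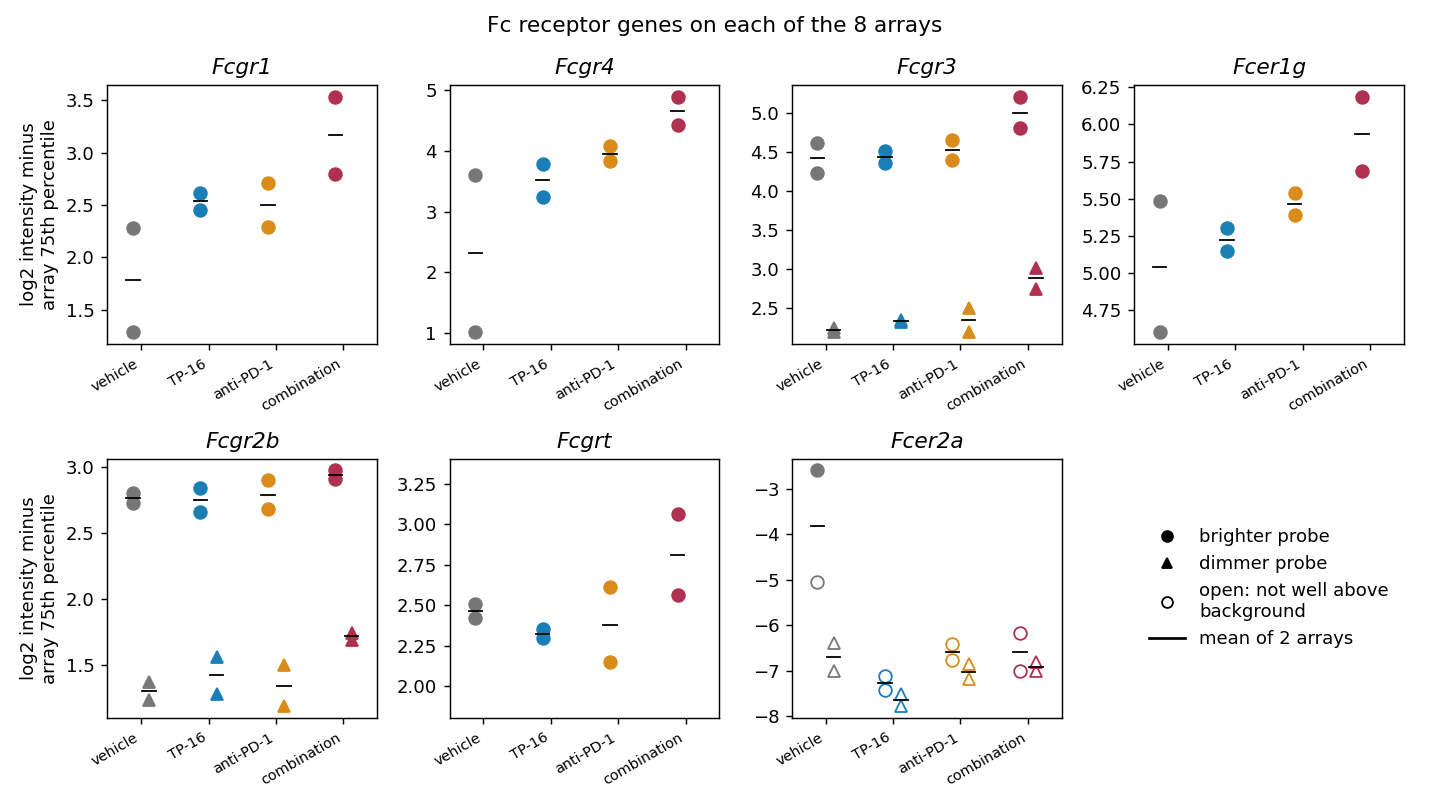
Each panel plots 1 gene, with the 4 groups on the horizontal axis and the log2 level, relative to the 75th percentile of each array, on the vertical axis, which is set per panel. Points are single arrays, circles and triangles are the brighter and dimmer probe, open symbols were not well above background, and short lines are means of 2 arrays. The combination arrays are the 2 highest of 8 in Fcgr1, Fcgr4, Fcgr3, Fcer1g and Fcgr2b, and vehicle replicate 1 of Fcgr4 stands at 1.02, below all others.

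The inhibitory receptor Fcgr2b varied least among the 6 genes. Its brighter probe stood at 2.80 and 2.72 under vehicle, 2.66 and 2.84 under TP-16, 2.90 and 2.68 under anti-PD-1, and 2.91 and 2.97 under the combination. Its SD over the 8 arrays was 0.11, at percentile 9.14 of all genes tested, while that of Fcgr4 was 1.16, at percentile 96.5. The combination difference was 0.18 (SE 0.13, interval -0.14 to 0.49, adjusted p = 0.320 in limma), so that a rise of up to 0.49 lies within the interval. The dimmer probe gave 0.41 (SE 0.16), with an adjusted p of 0.0974 in limma, from 1.37 and 1.24 under vehicle to 1.69 and 1.75 under the combination.

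The change of the activating receptors was set against that of the inhibitory receptor within each array, as the mean of Fcgr1, Fcgr3 and Fcgr4 minus Fcgr2b, each relative to its vehicle mean. This log2 difference was -0.70 and 0.70 under vehicle (SD 0.99), 0.67 ± 0.26 (SD, n = 2) with TP-16, 0.79 ± 0.066 with anti-PD-1 and 1.26 ± 0.33 with the combination. The 2 combination arrays, at 1.03 and 1.50, were above the other 6, while vehicle replicate 2 lay within the range of the single agents. Without vehicle replicate 1 the combination value was 0.56, and without vehicle replicate 2 it was 1.96. By receptor, Fcgr4 minus Fcgr2b was 1.98 and 2.37 under the combination. Fcgr1 minus Fcgr2b was 0.87 and 1.54, the first of them below the 0.94 of TP-16 replicate 1. Fcgr3 minus Fcgr2b was 0.24 and 0.58, the first of them level with the 0.23 of vehicle replicate 2. These values use the brighter Fcgr2b probe. With its dimmer probe the combination value of the 3 receptors was 1.03 in place of 1.26, and that of Fcgr3 alone 0.17 in place of 0.41, or 0.25 with the dimmer probe of both genes. These differences show unequal change within an array and were not tested.

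FcRn (Fcgrt) stood at 2.51 and 2.42 under vehicle, 2.30 and 2.36 under TP-16, 2.62 and 2.15 under anti-PD-1, and 2.56 and 3.06 under the combination. The lower combination array lay below the higher anti-PD-1 array, so these groups overlapped, and both TP-16 arrays lay below both vehicle arrays. Against vehicle the combination difference was 0.35 (SE 0.22, interval -0.20 to 0.90, adjusted p = 0.266 in limma), and without combination replicate 2 it was 0.10. CD23 (Fcer2a) was well above background on 1 of 8 arrays with 1 probe, vehicle replicate 2 at -2.60, and on 0 of 8 with the other. Its remaining values ran from -7.78 to -5.06, and no fold is given for it.

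With the combination, 1 of the 6 tested genes rose at an adjusted p of at most 0.05 in limma and 0 fell, where 34.5% of all 21616 genes passed in either direction, 2140 of them higher (9.9% of all genes) and 5312 lower (24.6%). Nothing is read from a count of 1 against these shares. Without combination replicate 2, 0 of the 31912 tested probes passed in limma, with 9221 at p values of 0.05 or less before adjustment. Both combination arrays were above both vehicle arrays in 6 of 6 genes, against 23.7% of all genes. In 5 of 6 genes the combination arrays were above all 6 other arrays, against 14.1% of all genes. Fcgr2b is among them by a small margin, at 2.909 against 2.897. Fcgr1, Fcgr4 and Fcer1g followed each other at a Pearson r of 0.94, so these genes are not separate observations. At the threshold of the methods, which asks for a 2-fold difference and an unadjusted p of 0.05 or less, Fcgr1 and Fcgr4 passed, with 6.8% of all genes passing higher, where p is that of limma. By the methods' t-test 0 of the 6 passed, against 6.88% of all tested probes in either direction and 2.5% higher. In that test, run on groups of 2 arrays, the unadjusted p of Fcgr1 was 0.155 and that of Fcgr4 0.216. The median difference of the 6 genes was 0.74, and that of all genes tested was -0.22. This median depends on the scaling: over all tested probes it was -0.19 here and -0.013 after quantile normalization, where 49.6% of the probes passing were higher, against 30.3% here. After quantile normalization Fcer1g rose by 1.38 and the brighter Fcgr3 probe by 0.91, both passing, and Fcgr1 by 1.49 with an adjusted p of 0.0509.

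**Figure D2:**
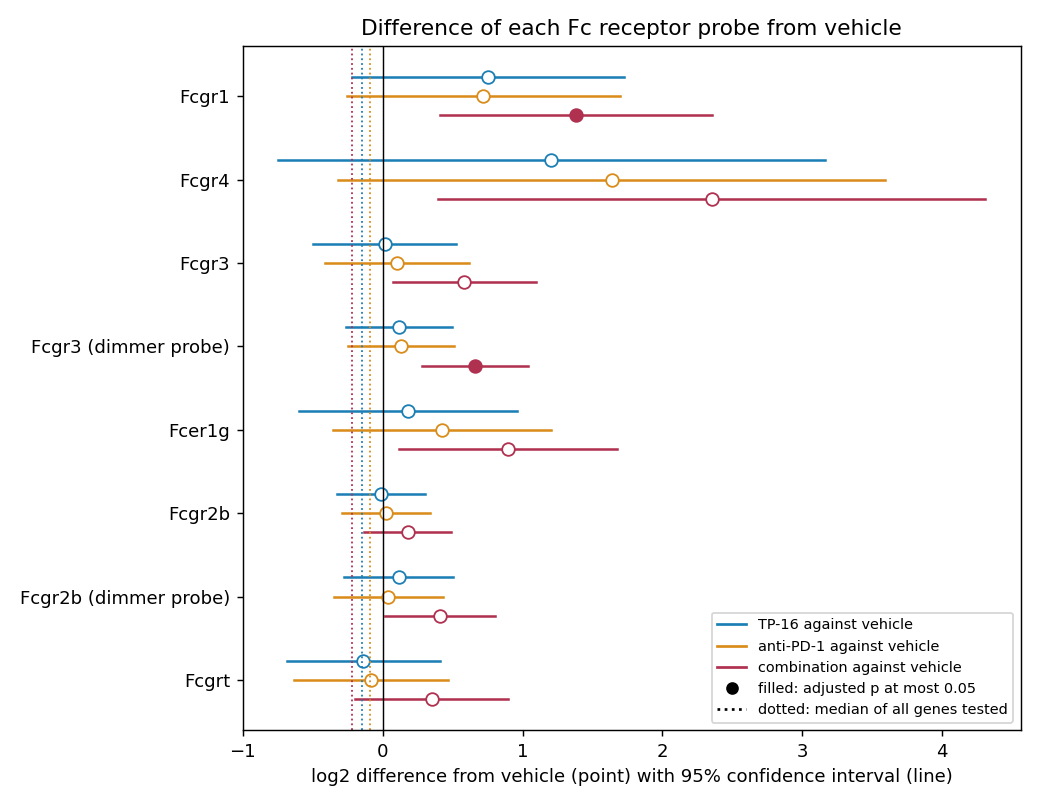
Points are log2 differences from vehicle for the 8 tested probes in the TP-16, anti-PD-1 and combination groups (2 arrays each), lines are 95% confidence intervals, filled points passed an adjusted p of at most 0.05 in limma, and dotted lines mark the median of all genes tested. The 2 filled points are the combination values of Fcgr1, at 1.38, and of the dimmer Fcgr3 probe, at 0.66.

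The single agents gave smaller differences. With TP-16, 0 of 6 genes passed in limma at either threshold and 0 had an unadjusted p of at most 0.05, against 27.3% of all genes. The background was 0.0555% of all genes at the adjusted threshold and 1.58% at the methods' threshold, higher. Fcgr1 differed by 0.75 (SE 0.40, adjusted p = 0.281) and Fcgr4 by 1.21 (SE 0.79, adjusted p = 0.377), while Fcgr3, Fcer1g, Fcgr2b and Fcgrt lay between -0.14 and 0.18. Anti-PD-1 gave 0 of 6 genes in limma, against backgrounds of 0.074% and 1.95% at these thresholds, and 0 at 0.05 before adjustment, against 14.7% of all genes. Fcgr4 differed there by 1.64 (SE 0.79, adjusted p = 0.409) and Fcgr1 by 0.72 (SE 0.40, adjusted p = 0.447). The methods' t-test, at a fold of 2, called 0 of the 6 with either agent. In either direction it called 1.62% of all tested probes with TP-16 and 0.937% with anti-PD-1, and 0.357% higher with each. The Fcgr1 and Fcgr4 differences rest largely on vehicle replicate 1. Without it the Fcgr1 difference was 0.26 with TP-16 and 0.22 with anti-PD-1. For Fcgr4 the TP-16 difference was then -0.091 and the anti-PD-1 difference 0.34, while without vehicle replicate 2 the TP-16 difference was 2.51 and the anti-PD-1 difference 2.94, both passing.

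The combination was also compared with each single agent, where 0 of 6 genes passed in limma. Against TP-16, where 0% of all genes passed, the differences of the 6 genes ran from 0.19 to 1.14, and the brighter Fcgr3 probe had an unadjusted p of 0.0344 (adjusted p = 0.199), where 23% of all genes were at 0.05 or less. Against anti-PD-1, where 0.0139% of all genes passed, they ran from 0.15 to 0.71 on the brighter probes and 0 had an unadjusted p of 0.05 or less, against 28.7% of all genes. The dimmer Fcgr3 probe differed by 0.55 from TP-16, with an unadjusted p of 0.0125 (adjusted p = 0.152), and by 0.53 from anti-PD-1, with an unadjusted p of 0.0142 (adjusted p = 0.116), both in limma. These comparisons share the combination arrays with the comparison against vehicle. The second of them compares groups in the same row of the slide.

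Whether tumors differed in these receptors with anti-PD-1 was addressed by the anti-PD-1 and combination arrays together against the vehicle and TP-16 arrays. With 4 arrays on each side, 0 of 6 genes passed in limma, as did 0% of all genes, and 2 of 6 had an unadjusted p of at most 0.05, against 30.2% of all genes. Those were Fcgr4, with a difference of 1.39 (SE 0.56, adjusted p = 0.176), and Fcer1g, with 0.57 (SE 0.22, adjusted p = 0.170). For Fcgr4 all 4 arrays with anti-PD-1 were above the 4 vehicle and TP-16 arrays, while the other tested genes overlapped. How many of all genes separated in this way was not counted, so nothing is read from it. The Fcgr4 difference was 0.74 without vehicle replicate 1, and 2.04 without vehicle replicate 2, where it passed with an adjusted p of 0.0271 in limma. That of Fcer1g was 0.35 without vehicle replicate 1. In the same comparison all 8 mast-cell and basophil markers had an unadjusted p of 0.05 or less in limma, with a median of 1.20, as did 11 of 14 genes of the interferon gamma axis, with a median of 1.30, though 0 of either passed after adjustment. This was not particular to them. In either direction 15 of 21 activating signaling genes, 7 of 10 further Fc receptor genes and 6 of 9 B-cell and plasma-cell markers were also at 0.05 or less. Fibroblast markers gave 6 of 7 and macrophage markers 4 of 14. The summed level of the mast-cell and basophil markers, cells that carry the γ chain, was between 9.51 and 14.8 multiples of the 75th percentile on the vehicle and TP-16 arrays and between 23.4 and 35.0 on the anti-PD-1 and combination arrays. The part of these genes in the receptor values was not tested. On the dimmer Fcgr3 probe the difference was 0.34, with an unadjusted p of 0.0214 (adjusted p = 0.123, limma). For TP-16 in the same layout 0 of 6 passed, against 18.7% of all genes. Fcgr1 differed by 0.71 (SE 0.28, adjusted p = 0.128, limma), the lowest p on the brighter probes, and by 0.46 without vehicle replicate 1. The dimmer Fcgr3 probe differed by 0.32 (adjusted p = 0.0909, limma). The departure from additivity ran from -0.49 for Fcgr4 to 0.57 for Fcgrt, with 0 of 6 genes and 0% of all genes passing in limma, and with 0 of the 6 at 0.05 before adjustment, against 6.94% of all genes. The intervals of this departure were wide, -3.26 to 2.27 for Fcgr4 and -1.47 to 1.29 for Fcgr1.

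Over the 8 arrays the receptors followed each other to differing degrees. Fcgr1, Fcgr4 and Fcer1g followed each other closely, at Pearson r of 0.94 for each pair, and Fcgr3 followed Fcer1g at 0.92, Fcgr1 at 0.86, Fcgrt at 0.83 and both Fcgr2b and Fcgr4 at 0.75. Fcgr2b followed Fcgrt at 0.85, Fcgr1 at 0.50, Fcer1g at 0.49 and Fcgr4 at 0.31. Fcgrt followed Fcer1g at 0.60, Fcgr1 at 0.57 and Fcgr4 at 0.33. These values describe 8 arrays of 4 groups, in which treatment and the low vehicle array move many genes together. The genes most like Fcgr4 among all tested were Acod1 (r = 0.997), AW112010 (0.996) and Tmem163 (0.993). Those most like Fcgr1 were Arhgap45 (0.994), Rab19 (0.992) and Aldh1l1 (0.991), and those most like Fcgr3 were Cntn6 (0.991), Acaa1a (0.987) and Scp2 (0.984). Fcer1g was most like Fkbp1b (0.994), Vwf (0.992) and Lime1 (0.991), Fcgrt most like Trf (0.980), Stab1 (0.967) and Maf (0.958), and Fcgr2b most like ENSMUST00000118089 (0.947), Atp6v0d2 (0.937) and Slc7a6os (0.936).

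Genes that carry the signal of activating Fc receptors were higher with the combination in 17 of 21 cases and lower in 0 (limma, adjusted p of at most 0.05), with a median difference of 1.12, where 9.9% of all genes were higher. Among those that rose were Syk, the kinase that docks on the γ chain, by 1.59, the Src-family kinase Fgr by 2.14, the adaptor SLP-76 (Lcp2) by 1.77 and the PI3-kinase subunit Pik3r5 by 2.06. Many of these genes also serve B-cell and T-cell receptors. Without vehicle replicate 1 the count was 8 of 21, with 6.99% of all tested probes higher, and without combination replicate 1 it was 10 of 21, with 5.05% higher. Without combination replicate 2 no probe of the array passed, so the count was 0 of 21. Of 12 genes on the inhibitory side, 6 rose and 1 fell, beside 9.9% and 24.6% of all genes, with a median of 0.62. The median was 0.44 without vehicle replicate 1 and 0.40 without combination replicate 2. SHIP-1 (Inpp5d), the phosphatase that FcγRIIB recruits, rose by 1.57, the ubiquitin ligase Cblb by 1.49 and SHP-1 (Ptpn6) by 1.22. The gene that fell was Pirb, an inhibitory receptor for MHC class I, at -0.88, a value of -0.0096 after quantile normalization.

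Of 11 other receptors and adaptors that use the γ chain or a related adaptor, 3 rose and 2 fell with the combination, beside 9.9% and 24.6% of all genes, with a median of 0.76. After quantile normalization 3 rose and 1 fell. Without vehicle replicate 1 the median was 0.23 and 1 rose. Among them Pira2 rose by 1.30 and the C-type lectin receptors Clec4d and Clec4e by 0.82 and 0.76. Clec4n (Dectin-2), at -0.95, and Oscar, at -0.72, fell, the former with an adjusted p of 0.0536 after quantile normalization. The related adaptor Tyrobp (DAP12) differed by 0.62 (adjusted p = 0.151, limma). Of 10 further Fc receptor genes 4 rose and 0 fell, with a median of 0.70, or 0.29 without vehicle replicate 1. They were the IgE receptor α chain Fcer1a, by 1.02, the cytosolic antibody receptor Trim21, by 1.29, and Fcrla and the IgM receptor Fcmr. Fcrla and Fcmr were well above background on 6 and 4 of the 8 arrays and get no fold here. The filter could admit such genes through the groups where they were high, so nothing is read from the count of 4. Of the 4 partners of FcRn and CD23, 1 passed. It was B2m, the light chain of FcRn and of MHC class I, and its direction depended on the scaling, at -0.46 (adjusted p = 0.0495) here and 0.36 (adjusted p = 0.0497) after quantile normalization.

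Interferon gamma is a known inducer of Fcgr1. With the combination 11 of 14 genes of its axis rose and 0 fell, beside 9.9% and 24.6% of all genes. The median difference was 2.25, against -0.22 over all genes. Ciita, the regulator of MHC class II, rose by 4.86, Ifng itself by 4.07 and the guanylate-binding protein Gbp5 by 2.99. Without vehicle replicate 1 the median was 1.37. It was 2.31 without combination replicate 1 and 2.17 without combination replicate 2. The mean log2 level of this list on vehicle replicate 1 was 1.98 below its mean over the 8 arrays, the array on which Fcgr4 was 2.60 and Fcgr1 1.21 below theirs. Its part in the receptor levels was not tested.

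**Figure D3:**
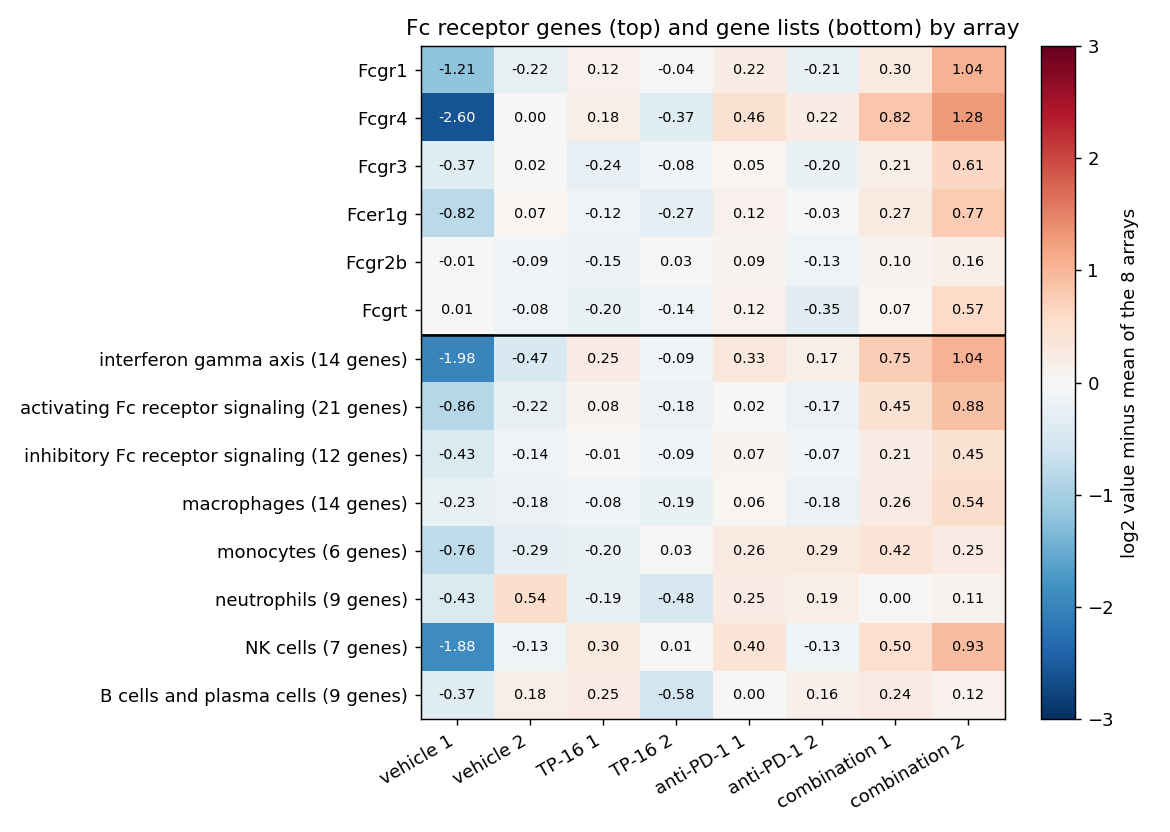
Rows are the 6 tested Fc receptor genes on their brighter probes (above the line) and the mean of the tested genes of 8 lists (below it), columns are the 8 arrays, and colour and number give the log2 value minus its mean over the 8 arrays. Vehicle replicate 1 is lowest in Fcgr4 (-2.60), in the interferon gamma axis (-1.98) and in NK-cell markers (-1.88), and Fcgr2b stays between -0.15 and 0.16.

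Some markers of cells that carry Fc receptors also differed with the combination. Counts with all 8 arrays and this scaling stand beside 9.9% of all genes higher and 24.6% lower. The part of these markers in the receptor values was not tested. Of 14 macrophage markers 6 rose and 2 fell with the combination (limma, adjusted p of at most 0.05), and 3 rose without vehicle replicate 1. After quantile normalization 8 rose and 0 fell. Adgre1 (F4/80) rose by 2.07, Cd68 by 1.15 and Csf1r by 0.95, and Lyz2, at -0.55 here, was at 0.37 after quantile normalization. Other markers of the list did not rise. After quantile normalization Itgam was at -0.61, Cd14 at -0.29 and Mrc1 at -0.052, and these did not pass. The summed level of the 14, in multiples of the 75th percentile of the array, was 422 and 478 under vehicle, 402 and 382 with TP-16, 473 and 431 with anti-PD-1, and 447 and 499 with the combination, so that the groups overlapped. The mean log2 level of the same 14 genes, in which each counts equally, was 3.68 and 3.96 under the combination and between 3.19 and 3.49 on the other 6 arrays, so there the combination arrays were the highest. Of 6 monocyte markers 3 rose and 0 fell, with Ly6c2 rising by 2.12. Their summed level was 58.8 and 107 under vehicle and 145 and 137 with TP-16. It was 202 and 186 with anti-PD-1 and 211 and 208 with the combination. The count was 1 of 6 without vehicle replicate 1 and 0 of 6 without combination replicate 1. NK-cell markers gave 2 of 7 higher, and Ncr1 differed by 1.12 (adjusted p = 0.0896 in limma). Their summed levels were 6.27 and 27.9 under vehicle and 29.4 and 28.0 with TP-16. They were 41.1 and 28.8 with anti-PD-1 and 32.5 and 34.1 with the combination, so the highest was an anti-PD-1 array. The NK count was 0 of 7 without vehicle replicate 1 or combination replicate 1 and 7 of 7 without vehicle replicate 2. Neutrophil markers gave 0 of 9 higher and 2 lower, S100a9 and S100a8, at -1.19 and -1.07. Ly6g was well above background on 2 arrays. It entered the tests only through the group of those arrays, so nothing is read from a call of Ly6g. After quantile normalization 2 neutrophil markers were higher, Ly6g and Camp (1.69, adjusted p = 0.0433 in limma), and 2 lower, and without vehicle replicate 2 the counts were also 2 and 2. Without combination replicate 1 they were 0 and 0. The 2 of 9 lower stand beside 24.6% of all genes. Of 9 B-cell and plasma-cell markers 2 rose and 3 fell, beside 9.9% and 24.6% of all genes. The counts were 3 and 2 after quantile normalization and 2 and 1 without vehicle replicate 2. The plasma-cell gene Jchain rose by 3.99 and Ms4a1 (CD20) fell by 2.49. Mzb1 also rose, was well above background on 7 of 8 arrays and gets no fold. Pax5 and Cd79a also fell, but were well above background on 4 of 8 arrays and get no fold. The filter could admit them through the groups where they were high, so nothing is read from the count of 3 lower. Mast-cell and basophil markers gave 6 of 8 higher and 0 lower, eosinophil markers 2 of 3 and dendritic-cell markers 5 of 8 (4 without vehicle replicate 1, 2 without combination replicate 1). T-cell markers, of cells that mostly lack these receptors, gave 4 of 8 higher (7 without vehicle replicate 2, 2 without combination replicate 1), fibroblast markers 4 of 7 and endothelial markers 1 of 5 (0 without vehicle replicate 1). Epithelial markers gave 0 of 5 higher and 2 lower (1 without vehicle replicate 1). Of 7 housekeeping genes 3 were lower, with a median of -0.43 that became 0.10 after quantile normalization.

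The combination differences held their sign in each setting tried for the 8 tested probes. The brighter Fcgr2b probe and Fcgrt passed in 0 of 16 settings of scaling, filter, model or arrays, and the call of the other 6 probes changed in at least 1. Leaving out each array in turn, Fcgr1 ran from 0.89 to 1.88 and passed only without vehicle replicate 2. Fcgr4 ran from 1.05 without vehicle replicate 1 to 3.65 without vehicle replicate 2, Fcer1g from 0.45 to 1.33, the brighter Fcgr3 probe from 0.38 to 0.79 and Fcgr2b from 0.14 to 0.22. The dimmer Fcgr3 probe varied least in proportion among the activating receptors, from 0.53 to 0.80, and passed in 11 of these 16 settings, where Fcgr1 passed in 4. It did not pass by the methods' t-test or at a fold of 2 in limma, where Fcgr1 passed the latter.

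**Figure D4:**
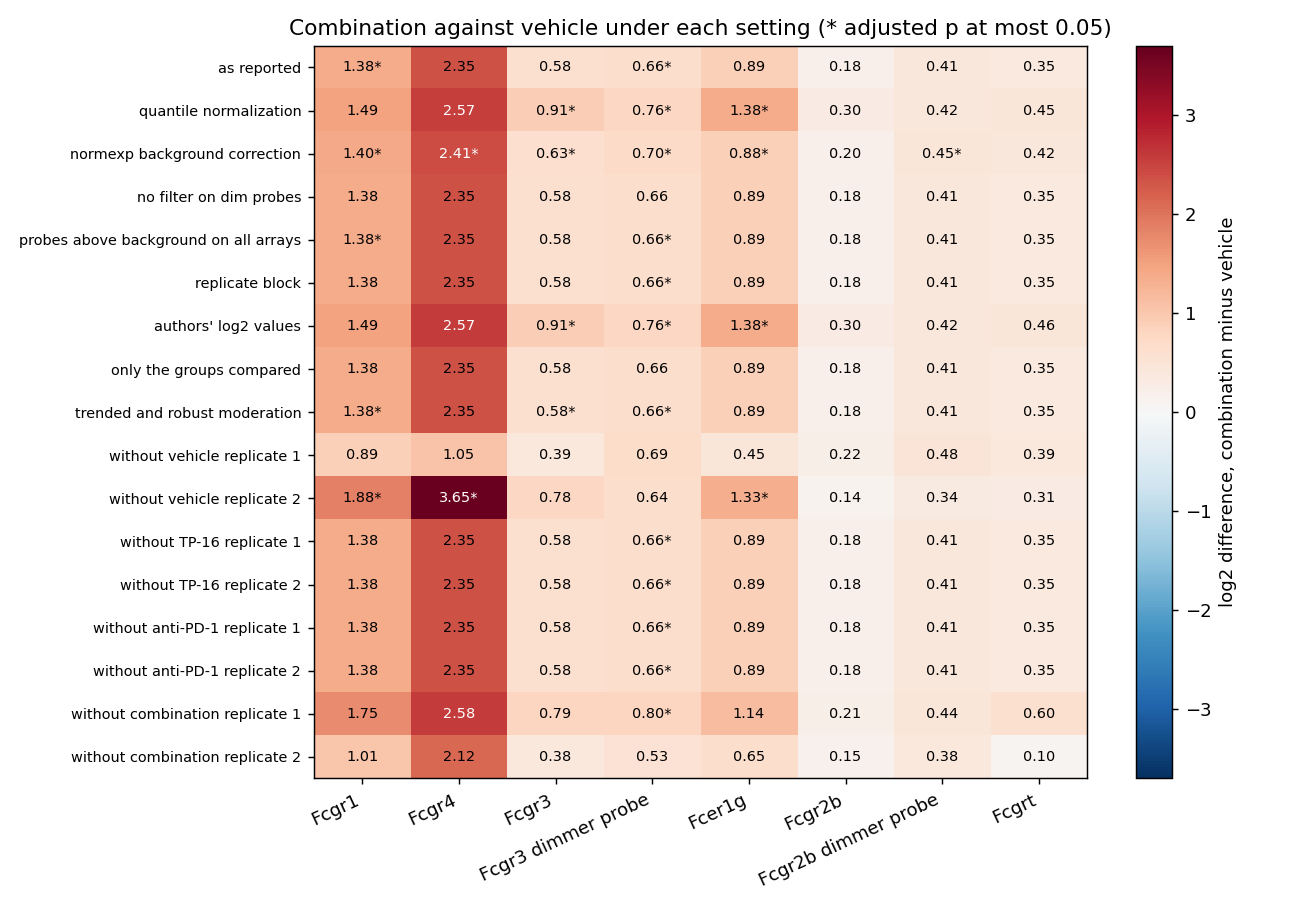
Each row is a setting and each column a tested probe, and colour and number give the log2 difference of combination minus vehicle, with an asterisk where the adjusted p in limma was at most 0.05. All values are positive, from 0.10 for Fcgrt without combination replicate 2 to 3.65 for Fcgr4 without vehicle replicate 2.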

How the data were processed

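Scanner intensities of 8 one-colour Agilent SurePrint G3 Mouse GE V2.0 arrays, already background-subtracted by the authors with Feature Extraction 10.7.1.1, were deposited per array. The labels give a column kit for RNA extraction and the methods give TRIzol. The deposited log2 table, which the methods attribute to GeneSpring, served as an alternative. Control spots and outlier spots were removed, and 38 probes with no spot left on an array were dropped. Each log2 intensity had the 75th percentile of its array subtracted. The 2 arrays per group limit the precision. The 31912 probes that exceeded background clearly on 2 of 2 arrays in some group entered 1 limma 3.58.1 fit (R 4.3.3) of 4 group means, with Benjamini-Hochberg adjustment over all of them. A gene was taken by its brightest probe, and differences are first minus second group. Names came from RefSeq for 58.3% of the probes, otherwise from the array. The text names all members, of each list mainly genes that passed, and the 3 most correlated genes per member. The members and gene lists were chosen with earlier results of these data known. The fit was tested on simulated data. Alternatives are in the closing section. Figures were drawn with matplotlib 3.10.9.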

Additional observations from a re-analysis of the deposited data

How the results depend on the processing

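The number of receptor genes passing with the combination, 1 of 6, was 2 after quantile normalization, with the authors' log2 values, with trended and robust moderation, at a fold of 2 in limma and over all member probes, 4 after normexp background correction, and 0 without the filter on dim probes, in a fit of the compared groups only, and by the methods' t-test at its threshold and after Benjamini-Hochberg. The share of all probes called moved too, from 31% to 25.4% after quantile normalization, 53.5% after normexp, 9.05% without the filter and 0% in the fit of the compared groups. Leaving out each array gave 0 to 3, with 3 without vehicle replicate 2. That array decided further counts: without it 1 gene (Fcgr4) passed for TP-16, for anti-PD-1, for the antibody and for TP-16 in the 4-against-4 comparisons, and 0 without any other array. Normexp gave 1 gene (Fcgr1) for TP-16 in the 4-against-4 comparison, where 46.7% of all probes passed. A fold of 2 in limma gave 1 gene (Fcgr4) for the antibody, where 3.24% of all probes passed. With the replicate number as a block the combination count was 0 (Fcgr1, adjusted p = 0.0575). Correlations of same-numbered deviations ran from -0.19 to 0.29 over the 6 pairs of groups, at 0.29 for vehicle and combination, with 4 above 0.1 and 2 below. Not every pair was above 0.1, so the numbers were not taken to pair the samples. Combination against TP-16, combination against anti-PD-1 and additivity kept a count of 0 in each setting. The activating minus inhibitory value, 1.26, ran from 0.56 to 1.96 over the arrays left out.

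For single genes, 834 recomputed differences kept sign and call, 22 lost a call, 18 gained one and 22 changed sign, 0 of these with the combination against vehicle. Fcgr2b with TP-16, -0.015, was 0.031 after quantile normalization, 0.013 after normexp, 0.032 with the authors' values and -0.10 to 0.074 over the arrays left out. The departure of Fcgr1, -0.090, was 0.017 after quantile normalization, 0.016 with the authors' values and -0.59 to 0.41 over the arrays left out. The other sign changes came only on leaving out an array. For TP-16 against vehicle these ranges were -0.18 to 0.21 for Fcgr3, -0.091 to 2.51 for Fcgr4 and -0.26 to 0.62 for Fcer1g. For anti-PD-1 they were -0.082 to 0.13 for Fcgr2b, -0.093 to 0.30 for Fcgr3, -0.019 to 0.86 for Fcer1g and -0.32 to 0.15 for Fcgrt. The departure from additivity ran from -1.79 to 0.80 for Fcgr4 and from -0.15 to 0.73 for Fcer1g.

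List counts were recomputed without each vehicle and combination array and after quantile normalization, settings chosen after seeing the data. Activating signaling genes higher ran from 0 to 17, inhibitory 0 to 5 (6 after quantile normalization), interferon gamma 0 to 12 (13 after quantile normalization), other Fc receptors 0 to 4 and γ-chain users 0 to 6, each 0 without combination replicate 2. Partners of FcRn and CD23 had 1 higher (B2m) after quantile normalization. The causes were not tested.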
